A study of Mus musculus with 6 samples.

Results

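The genes of the Wnt pathway were examined in 6 RNA-seq libraries. The labels give the cells as SaOS2, a long-established line from a human osteosarcoma, and the titles divide the libraries between a group C (3 libraries) and a group D (3). The members were every listed gene whose symbol is WNT or FZD followed by a number and, for some ligands, the letter A or B (23 genes), together with 26 of 27 further symbols named for their roles as co-receptors, inhibitors, scaffolds, kinases, transcription factors or feedback genes. This gave 49 genes of the 17144 listed, and the remaining symbol, NKD2, was not analysed here. The title of the series names DDTC(I) and its effect on these cells, but no label states which letter stands for which condition, at what dose or for how long, so differences are given as D minus C. Whether libraries of 1 group are separate cultures is not in the labels, and the p-values therefore reflect the spread among these libraries alone, which may be technical.

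Wnt proteins are secreted, lipid-modified ligands that bind Frizzled (FZD) receptors together with the co-receptors LRP5 and LRP6. Without a ligand, a destruction complex of AXIN, APC, GSK3 and casein kinase 1 marks beta-catenin (CTNNB1) for degradation, while ligand binding recruits Dishevelled (DVL), inhibits the complex and lets beta-catenin reach TCF/LEF factors on target genes. In bone, this pathway promotes the formation of osteoblasts, and secreted inhibitors such as DKK1 oppose it. Other ligands, among them those of the WNT5 genes, act mainly through the receptors ROR1, ROR2 and RYK without beta-catenin.

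Library totals lay between 18446443 and 20602771 counts, so that 3 counts of a gene, the floor used here, equal between 0.139 and 0.170 CPM (counts scaled by the library's total times its TMM factor). This floor covers counting error only. Of 13 markers of the osteoblast lineage, SP7, BGLAP, IBSP and DMP1 had at most 3 counts in every library, and ALPL, the alkaline phosphatase for which SaOS2 cells are known, had 8 to 15. The cells are therefore named by their label only. The summed level of the 13 osteoblast markers was 2013 to 2372 CPM in C and 739 to 824 CPM in D. SPARC alone gave 1778 to 2093 CPM of it in C and 639 to 729 CPM in D. Of 9 tested osteoblast markers, 5 were called lower and 2 higher (over all tested genes 27.7% were called lower and 26.8% higher). The summed level of 10 epithelial markers was 85.7 to 95.2 CPM in C and 126 to 162 CPM in D, most of it from KRT8 and KRT18. Of 6 tested, 3 were called higher and 2 lower (against the same shares of all tested genes), while EPCAM and KRT19 had at most 7 and 11 counts. Summed endothelial, macrophage and lymphoid markers overlapped between the groups, but TIE1 carried most of the endothelial sum and CD68 most of the macrophage sum. Of 5 tested endothelial markers CDH5 (−2.93 ± 0.22) and PECAM1 (−0.44 ± 0.16) were called lower and 0 higher. Of 4 tested macrophage markers CD163 was called higher, with 0 to 4 counts in C and 21 to 29 in D. CDH5, PECAM1, CD163 and the sums' leading genes were picked after their values were seen. Of the called markers, SPP1, CDH1 and CD163 had enough counts for the test through the D libraries only. CDH5, ESRP2 and CLDN4 had enough through the C libraries only. The part of these marker shifts in the results below was not tested.

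Most ligand and Frizzled receptor genes that were tested were lower in D, while 2 kinase genes of the destruction complex and the receptor gene FZD8 were higher. Of the 49 genes, 42 had enough counts to be tested with edgeR's quasi-likelihood test (adjusted p under 0.05 over 12682 genes), and 20 of these were called lower and 3 higher. Over all tested genes 27.7% were called lower and 26.8% higher, against 47.6% and 7.14% of the tested Wnt genes. The share called in either direction, 54.8%, was near the 54.4% of all tested genes. A fall of at least 2-fold was found for 11 of the 42 (26.2%, against 10.1% of all tested genes), and in 24 the D libraries all lay below the C libraries (57.1%, against 32.1%). A rise of at least 2-fold was found for 1 (8.37% of all tested genes), and in 4 the D libraries all lay above the C libraries (30.6% of all tested genes). The median log2 fold change was −0.37 for the tested Wnt genes and −0.02 for all tested genes. TMM factors, which balance the libraries over most genes, set the scale, and 49.2% of all calls were then higher in D. With library size only, 36.8% of calls were higher, and 25 Wnt genes were lower and 3 higher. The plot of fold changes by role shows genes called lower in every role but ligand processing and the destruction complex. For beta-catenin, Dishevelled and the secreted inhibitors, each such call was lost under at least 1 alternative fit or set of libraries.

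WNT7A, FZD9 and LRP5 passed the filter on low counts through the C libraries only, and without them 18 of 39 genes were called lower and 3 higher. That is 46.2% lower, against 27.2% of all genes that passed through both groups. The 7 genes that were not tested had between 0 and 9 counts per library. They were WNT1, WNT4, WNT8B, WNT9B, WNT10A, ROR2 and the inhibitor gene SFRP1. In RNA from bulk cells, fewer cells that make a messenger and less of it per cell cannot be told apart. Without D replicate 2 the counts were 22 lower and 4 higher, and without D replicate 3 they were 20 lower and 4 higher. Over all tested genes, 3879 of 12808 and 3837 of 12830 were called lower in these fits. Counts of 17, 15, 14 and 16 lower, each with 3 higher, came without C replicates 1, 2 and 3 and D replicate 1. Over all tested genes 2780, 2882, 2854 and 2824 were then lower (of 12809 to 12850), against 3509 of 12682 with all libraries.

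**Figure D1:**
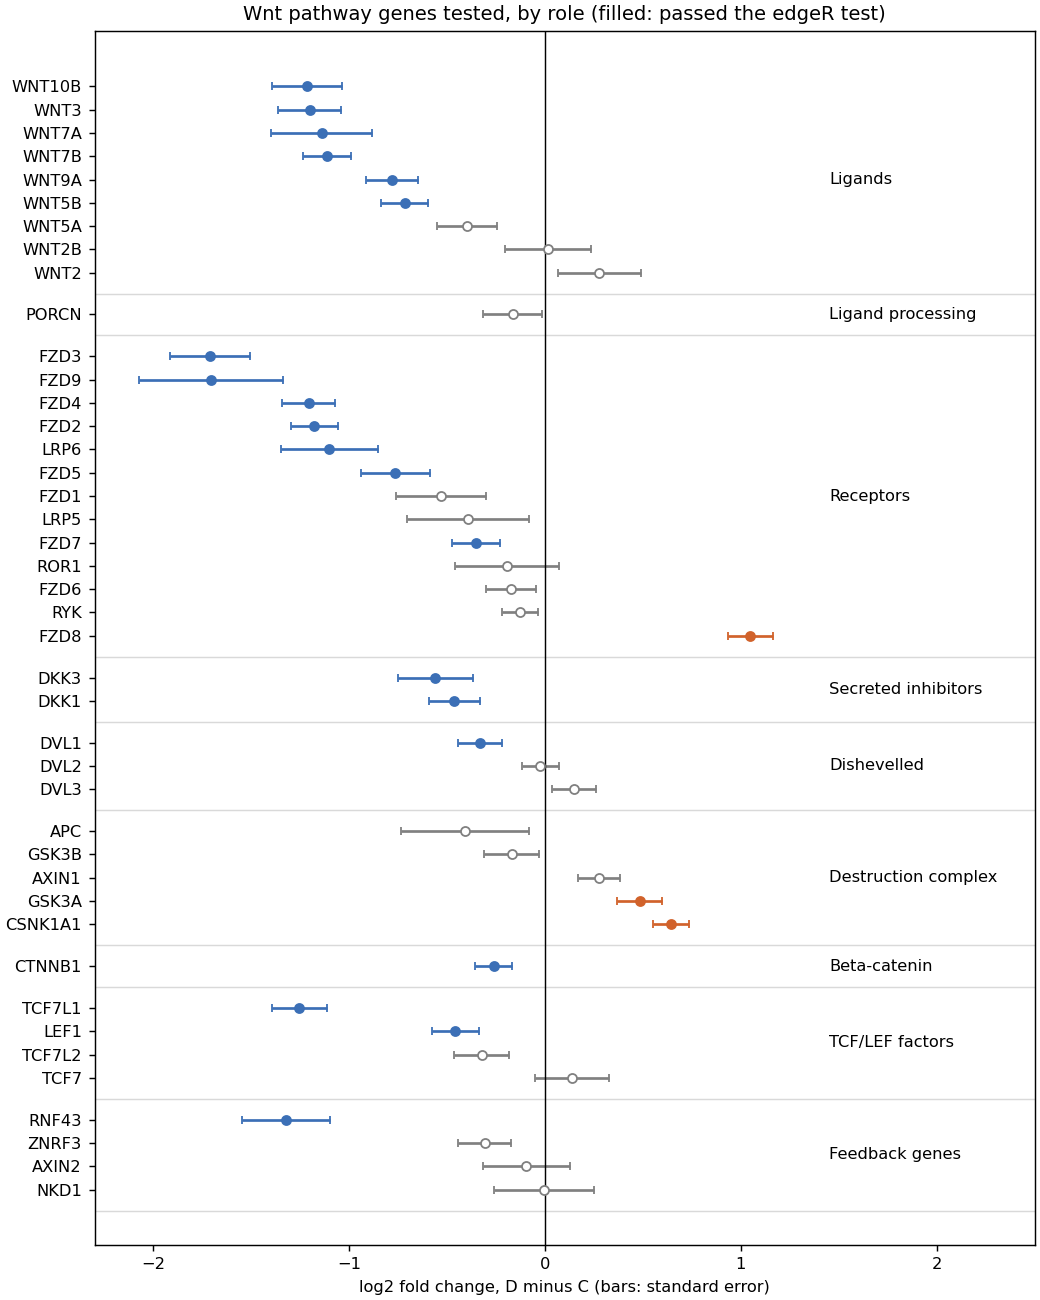
Log2 fold change, D minus C, of the 42 tested Wnt pathway genes, grouped by role, with bars for the standard error and filled symbols for genes that passed the edgeR test. FZD8 at 1.05 stands opposite to the other Frizzled genes, which lie between −1.71 and −0.18.

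Among the ligands, 6 of 9 tested WNT genes were lower in D and 0 were higher (background 27.7% lower), with a median log2 fold change of −0.78. The 6 included WNT7A, which passed the filter on low counts through the C libraries only. The 4 most abundant ligand genes per gene length all fell, and the summed ligand level was 38.2 ± 2.05 FPKM in C and 19.0 ± 0.433 FPKM in D (SD, n = 3). FPKM are counts scaled to gene length and to the library's total, without TMM factors. With library size only the median log2 fold change of all tested genes was −0.17, against −0.02 with TMM. FPKM levels, here and below, thus place D lower than CPM do. WNT5B, a ligand that mainly signals without beta-catenin, was the most abundant in every library. It had 51.0, 55.2 and 51.1 CPM in the C libraries and 30.0, 29.1 and 36.6 CPM in the D libraries. Its groups did not overlap, and its log2 fold change was −0.72 ± 0.12 (SE; adjusted p = 0.00133, edgeR).

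WNT9A, a ligand with a role in joint formation, had 34.1, 32.1 and 36.6 CPM in C and 22.8, 19.9 and 17.1 CPM in D (−0.78 ± 0.13, adjusted p = 0.00145). WNT7B, which promotes osteoblast differentiation, had 26.9, 28.9 and 33.5 CPM in C and 13.7, 13.9 and 13.7 CPM in D (−1.11 ± 0.12, adjusted p = 0.000144). WNT10B, which favours bone over fat formation, had 12.6, 14.5 and 17.6 CPM in C and 6.26, 5.41 and 7.61 CPM in D (−1.21 ± 0.18, adjusted p = 0.000605). In all 3 genes every D library lay below every C library, and WNT7B was nearly level among the D libraries. WNT3, a ligand of the beta-catenin branch, had 4.92, 5.13 and 5.17 CPM in C and 1.97, 2.13 and 2.5 CPM in D (−1.20 ± 0.16, adjusted p = 0.000371). WNT7A, a relative of WNT7B, had 27, 29 and 25 counts in C and 9, 10 and 13 counts in D, and its log2 fold change was −1.14 ± 0.26 (adjusted p = 0.00554).

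WNT5A, WNT2 and WNT2B did not pass the test. WNT5A, the main ligand of the ROR receptors, had 10.7, 11 and 11.7 CPM in C and 7.5, 10.3 and 7.49 CPM in D (−0.40 ± 0.15, adjusted p = 0.053). The groups did not overlap. Without D replicate 2 it was −0.53 and passed the test (adjusted p = 0.00587, edgeR), and with length trends removed it was −0.12. WNT2 and WNT2B had log2 fold changes of 0.28 ± 0.21 and 0.01 ± 0.22, with overlapping groups.

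The 4 leading ligands by length-scaled level were the same in both groups. WNT5B held 37.4% ± 2.48 of the summed WNT FPKM in C and 40.9% ± 3.31 in D, and WNT10B was in place 4 in all 6 libraries. WNT9A and WNT7B, next after WNT5B, lay within each other's spread in C (7.73 ± 0.54 and 7.54 ± 0.881 FPKM). In D, WNT9A ranked above WNT7B in all 3 libraries, although D replicate 3 had 3.35 FPKM of WNT9A and 3.01 FPKM of WNT7B. WNT2, which was not called, made up 1.58% ± 0.339 of the pool in C and 3.46% ± 0.305 in D as the others fell. PORCN, the enzyme that attaches the lipid to all Wnt proteins, had 9.63, 8.0 and 10.1 CPM in C and 8.01, 7.39 and 9.37 CPM in D. The groups overlapped, and the test was not passed (−0.17 ± 0.15, adjusted p = 0.377).

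**Figure D2:**
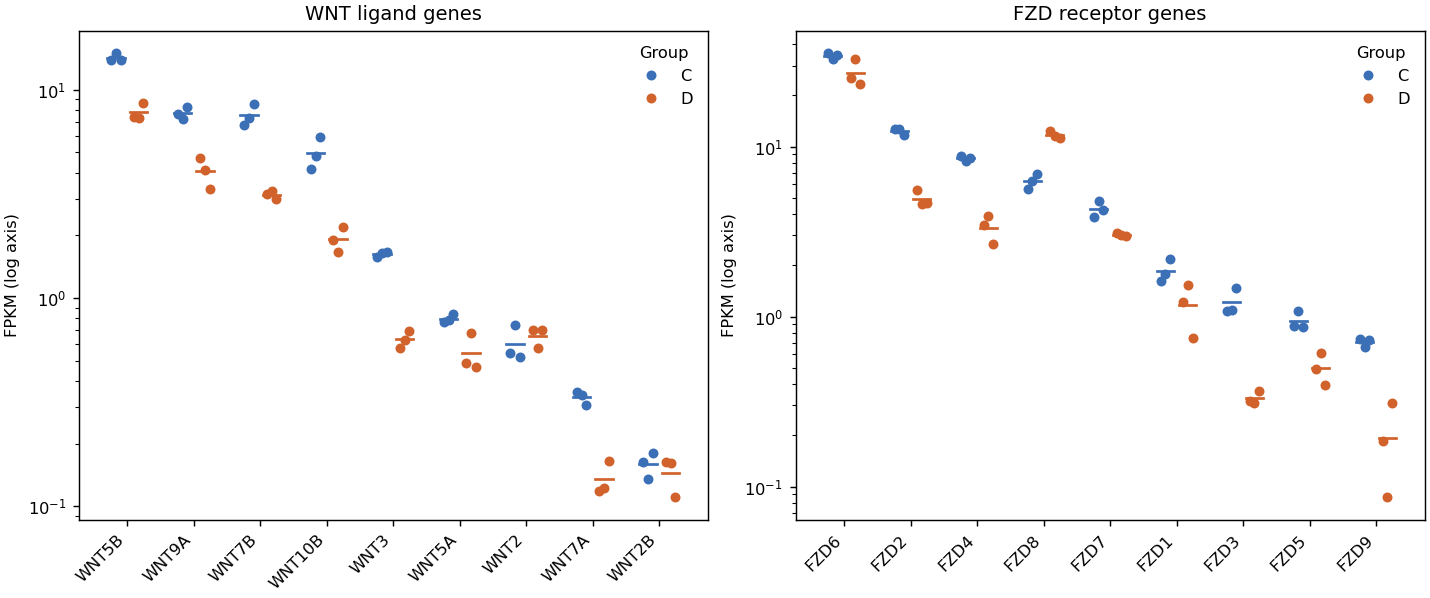
FPKM (log axis) of the 9 tested WNT and 9 FZD genes in each of the 3 C and 3 D libraries, with a line at each group's mean. WNT5B leads the ligands in both groups, FZD6 leads the receptors, and FZD8 is the gene whose D libraries lie above its C libraries.

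Of the 9 Frizzled receptor genes, 6 fell and 1, FZD8, rose (background 27.7% and 26.8%). The 6 included FZD9, which passed the filter on low counts through the C libraries only. FZD8, which has a high affinity for Wnt ligands and pairs with LRP6, had 21.7, 24.4 and 26.3 CPM in the C libraries and 52.0, 48.1 and 49.9 CPM in the D libraries. Every D library was above every C library, and the log2 fold change was 1.05 ± 0.11 (SE), or 2.07-fold (adjusted p = 0.00014, edgeR). FZD2, a receptor of both branches, had 45.4, 45.7 and 41.9 CPM in C and 21.8, 17.8 and 19.1 CPM in D (−1.18 ± 0.12, adjusted p = 9.95e-05). FZD4, the receptor of Norrin, had 61.6, 58.0 and 60.0 CPM in C and 26.5, 29.8 and 21.5 CPM in D (−1.21 ± 0.14, adjusted p = 0.000158). FZD2 and FZD4 thus each fell to less than the level of FZD8, which they had exceeded in every C library.

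FZD3, a receptor of planar polarity and axon guidance, had 4.36, 4.39 and 5.88 CPM in C and 1.41, 1.35 and 1.70 CPM in D, a log2 fold change of −1.71 ± 0.20 (adjusted p = 0.00021, edgeR). FZD9, which is known to act in osteoblasts, fell by a similar amount from few reads, with 32, 32 and 34 counts in C and 8, 4 and 14 counts in D (−1.71 ± 0.37, adjusted p = 0.00442). FZD5, a receptor known for its role in the gut epithelium and the eye, had 7.74, 9.52 and 7.58 CPM in C and 4.74, 5.83 and 4.03 CPM in D (−0.76 ± 0.18, adjusted p = 0.00615). The groups of these 3 genes did not overlap.

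FZD7, a receptor often studied in stem cells and tumours, had 16.7, 20.9 and 18.4 CPM in C and 14.7, 14.2 and 15 CPM in D. Its log2 fold change of −0.35 ± 0.12 passed (adjusted p = 0.0382, edgeR), but not in DESeq2 (−0.33), with RLE factors, DESeq2's own scaling (−0.32), or with each library's trend along gene length removed (−0.28). It also missed without C replicate 2 (−0.26), C replicate 3 (−0.36), D replicate 1 (−0.35) or D replicate 2 (−0.29). FZD6, known mainly from planar polarity and as a restraint on beta-catenin signalling, had 124, 115 and 121 CPM in C and 98.0, 125 and 94.4 CPM in D. D replicate 2 lay above all C libraries and the other two D libraries below them, and the gene was not called (−0.18 ± 0.13, adjusted p = 0.271), while without D replicate 2 it was −0.28 (adjusted p = 0.0319). FZD1, with 10.6, 11.7 and 14.2 CPM in C and 8.69, 10.9 and 5.62 CPM in D, did not pass the test either (−0.53 ± 0.23, adjusted p = 0.0794), and passed without D replicate 2 (−0.73, adjusted p = 0.0142).

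The makeup of the receptor pool changed in order. FZD6 held 48.6% ± 1.5 of the summed FZD FPKM in C and 51.8% ± 4.0 in D, a difference within the spread between the D libraries. FZD8 held 8.93% ± 0.845 in C and 22.5% ± 2.42 in D, moving from place 4 in every C library to place 2 in every D library. FZD2 fell from 17.6% ± 0.980 to 9.45% ± 1.48 and FZD4 from 12.1% ± 0.278 to 6.33% ± 0.551. The ratio of FZD8 to FZD4 in FPKM was 0.643, 0.767 and 0.801 in the C libraries and 3.58, 2.94 and 4.23 in the D libraries. The summed FZD level, without TMM factors, was 70.4 ± 1.01 FPKM in C and 52.5 ± 5.90 FPKM in D. These shares are set within a library and do not depend on its scaling, and they are given without a test.

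**Figure D3:**
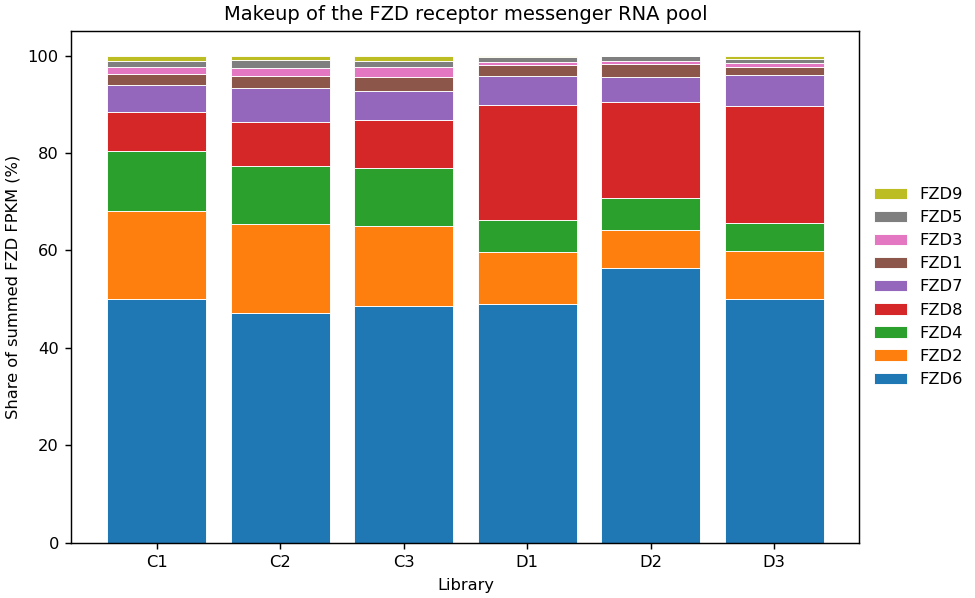
Share of the summed FZD FPKM (%) held by each of the 9 Frizzled genes in each library. FZD8 takes 8.0% to 9.66% of the pool in the C libraries and 19.7% to 24.1% in the D libraries, while FZD6 holds 47.1% to 56.4% throughout.

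Of the co-receptors, LRP6 fell and LRP5 was hardly detected. LRP6, which with a Frizzled receptor passes the signal to AXIN, had 46.3, 40.5 and 48.0 CPM in C and 19.7, 29.6 and 13.4 CPM in D. The groups did not overlap, but the D libraries ranged widely, and the log2 fold change was −1.10 ± 0.25 (adjusted p = 0.00564, edgeR). It passed both without D replicate 2 (−1.41) and without D replicate 3 (−0.85). LRP5, whose mutations alter human bone mass, had 9 to 18 counts per library (−0.39 ± 0.31, adjusted p = 0.314). The level per length of LRP6 was 5.04 ± 0.456 FPKM in C, and that of LRP5 was 0.132 ± 0.0361 FPKM.

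Of RYK, ROR1 and ROR2, receptors of the branch without beta-catenin, RYK and ROR1 were not called and ROR2 was not tested. RYK, a receptor with an inactive kinase domain, had 72.2, 72.5 and 75.7 CPM in C and 67.7, 66.1 and 68.2 CPM in D. All D libraries lay below the C libraries, yet the gene was not called (−0.13 ± 0.09, adjusted p = 0.274). With library size only it was −0.28 and passed (adjusted p = 0.0294, edgeR), a scaling that moved the median of all genes from −0.02 to −0.17. ROR1, a receptor of WNT5A, had 25.0, 23.4 and 28.5 CPM in C and 21.8, 31.8 and 13.4 CPM in D, so that D replicates 2 and 3 lay on either side of all C libraries. Its log2 fold change was −0.20 ± 0.27, and it was 0.08 without D replicate 3 and −0.51 without D replicate 2. ROR2 had 3 to 9 counts per library.

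Both tested secreted inhibitors were called lower in D (background 27.7%), and neither call held under every alternative fit or set of libraries. DKK1, which binds LRP6 and blocks the beta-catenin branch, had 22.5, 26.1 and 29.0 CPM in C and 20.4, 17.9 and 18.1 CPM in D (−0.46 ± 0.13, adjusted p = 0.0159, edgeR). DKK3, a family member that does not act on LRP6 in the same way, had 5.07, 4.71 and 5.50 CPM in C and 2.82, 3.18 and 4.37 CPM in D (−0.56 ± 0.19, adjusted p = 0.0342). The groups of both genes did not overlap. The call of DKK1 ended with the replicate number as a block (−0.46) and without C replicate 2 (−0.46) or C replicate 3 (−0.38), and held in the other alternatives. That of DKK3 ended in DESeq2 (−0.54) and without C replicate 1 (−0.57), C replicate 2 (−0.62), C replicate 3 (−0.51), D replicate 1 (−0.44) or D replicate 2 (−0.47).

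Within the cell, 2 of 5 genes of the destruction complex rose and 0 fell (background 26.8% higher). CSNK1A1, the casein kinase 1 that primes beta-catenin, had 125, 122 and 122 CPM in C and 182, 197 and 198 CPM in D (0.64 ± 0.09, adjusted p = 0.000543, edgeR). GSK3A, an isoform of the kinase that completes the degradation mark, had 111, 116 and 117 CPM in C and 165, 137 and 178 CPM in D (0.48 ± 0.12, adjusted p = 0.00791). Both lay above C in every D library. GSK3B, the other isoform, had 94.7, 93.0 and 91.7 CPM in C and 76.1, 101 and 71.1 CPM in D, which overlapped, and did not pass the test (−0.17 ± 0.14, adjusted p = 0.331). The ratio of GSK3A to GSK3B in FPKM was 3.79, 4.06 and 4.14 in the C libraries and 7.04, 4.41 and 8.14 in the D libraries.

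The scaffold gene AXIN1 had 43.4, 44.4 and 46.3 CPM in C and 58.2, 48.5 and 55.5 CPM in D. The groups did not overlap, but the gene was not called (0.28 ± 0.11, adjusted p = 0.0601). It passed with RLE factors (0.30), with length trends removed (0.38) and without D replicate 2 (0.38). APC, the large scaffold lost in many colorectal tumours, had 22.7, 21.0 and 30.7 CPM in C and 15.6, 29.5 and 10.8 CPM in D, with a log2 fold change of −0.41 ± 0.33 (adjusted p = 0.313). Without D replicate 2 the value for APC was −0.87 and passed (adjusted p = 0.00685, edgeR), as did that for GSK3B (−0.31, adjusted p = 0.0224).

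Of the 3 Dishevelled genes, which relay the signal from the receptor to AXIN, DVL1 was called lower. It had 123, 122 and 116 CPM in C and 95.9, 84.5 and 107 CPM in D (−0.33 ± 0.11, adjusted p = 0.0345, edgeR). The call ended with RLE factors (−0.30) and without C replicate 1 (−0.32), C replicate 2 (−0.32), C replicate 3 (−0.36), D replicate 1 (−0.33) or D replicate 2 (−0.21). DVL2 and DVL3 had log2 fold changes of −0.02 ± 0.10 and 0.15 ± 0.11 with overlapping groups. DVL1 was the most abundant of the 3 per length, with 41.4 ± 1.26 FPKM in C and 29.6 ± 2.59 FPKM in D.

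CTNNB1, which encodes beta-catenin itself, was the most abundant of the 49 genes per length, at 104 ± 5.88 FPKM in C and 78.0 ± 3.27 FPKM in D. It had 386, 376 and 416 CPM in C and 333, 326 and 324 CPM in D, with no overlap. The log2 fold change of −0.26 ± 0.09 passed narrowly (adjusted p = 0.0435, edgeR). The call ended with RLE factors (−0.23), without a filter on low counts (−0.27), and without C replicate 1 (−0.28), C replicate 2 (−0.29), C replicate 3 (−0.22), D replicate 1 (−0.27) or D replicate 2 (−0.22). These counts measure messenger RNA, while beta-catenin is controlled mainly through the stability of the protein.

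Among the TCF/LEF factors, TCF7L1 and LEF1 fell and 0 rose (background 27.7% lower). TCF7L1, which acts mostly as a repressor of Wnt targets, had 28.2, 22.0 and 28.1 CPM in C and 11.6, 11.3 and 9.88 CPM in D (−1.25 ± 0.14, adjusted p = 0.000161, edgeR). LEF1, an activator and itself a target of the pathway, had 12.4, 12.3 and 14.2 CPM in C and 9.37, 9.47 and 9.54 CPM in D (−0.46 ± 0.12, adjusted p = 0.0105). The groups of both genes were apart, and without C replicate 3 the value for LEF1 was −0.39 with an adjusted p of 0.0523. TCF7L2, with 23.8, 22.0 and 23.5 CPM in C and 17.6, 21.9 and 15.8 CPM in D, did not pass (−0.32 ± 0.14, adjusted p = 0.081), and passed without D replicate 2 (−0.43, adjusted p = 0.0108). TCF7, another activator and target, had 2.46, 2.17 and 2.42 CPM in C and 2.76, 2.86 and 2.10 CPM in D (0.14 ± 0.19, adjusted p = 0.567). By length-scaled level TCF7L1 led the 4 factors in C, with 9.21 ± 1.28 FPKM, while in D it was level with LEF1 and TCF7L2 (3.48 ± 0.394, 3.27 ± 0.0862 and 3.31 ± 0.653 FPKM).

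Feedback genes, which beta-catenin induces and which then dampen the pathway, were called lower in 1 case of 4 (background 27.7%). AXIN2, a scaffold widely used as a readout of beta-catenin activity, had 5.74, 5.92 and 6.59 CPM in C and 6.60, 6.77 and 3.69 CPM in D. D replicates 1 and 2 lay just above the C libraries and D replicate 3 below them, so the log2 fold change of −0.09 ± 0.22 (adjusted p = 0.739) turned to 0.15 without D replicate 3 (adjusted p = 0.426, edgeR). RNF43, a ubiquitin ligase that removes Frizzled receptors from the cell surface, had 8.35, 8.23 and 7.68 CPM in C and 3.27, 4.27 and 2.10 CPM in D. The groups did not overlap, and it fell by 1.32 ± 0.22 on the log2 scale (adjusted p = 0.00134). ZNRF3, its close relative, had 21.4, 21.0 and 24.9 CPM in C and 19.2, 19.7 and 15.4 CPM in D, apart but not called (−0.31 ± 0.14, adjusted p = 0.0862). With library size only ZNRF3 was at −0.46 and passed (adjusted p = 0.029). NKD1, a Dishevelled-binding antagonist, had 12 to 17 counts per library (−0.0044 ± 0.25, adjusted p = 0.996).

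Several of these genes are long, and the D libraries differed from each other along gene length. Each library's log2 CPM minus its group's mean was fitted on log2 length, and the slope was 0.0123, 0.162 and −0.174 in D replicates 1, 2 and 3, and between −0.0463 and 0.0476 in the C libraries. In the 13 tested Wnt genes over 6000 bp, the median deviation was 0.0409, 0.285 and −0.248 in D replicates 1, 2 and 3. In the 29 shorter ones it was 0.00686, −0.0432 and 0.0194. APC, ROR1 and LRP6, with 11437, 9290 and 9394 bp, had the widest gaps between D replicates 2 and 3 among the long genes, as the plot of deviations against length shows. After each library's trend along length was taken out (length trends removed), 19 Wnt genes were called lower and 5 higher. The 2 added rises were AXIN1 (0.38) and DVL3 (0.25). Of all 12682 tested genes 3854 were then called lower and 4169 higher. The log2 fold changes of the long genes LRP6, RNF43 and FZD4 were then −0.90, −1.16 and −1.03 and passed the test, and that of FZD8 was 1.10.

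**Figure D4:**
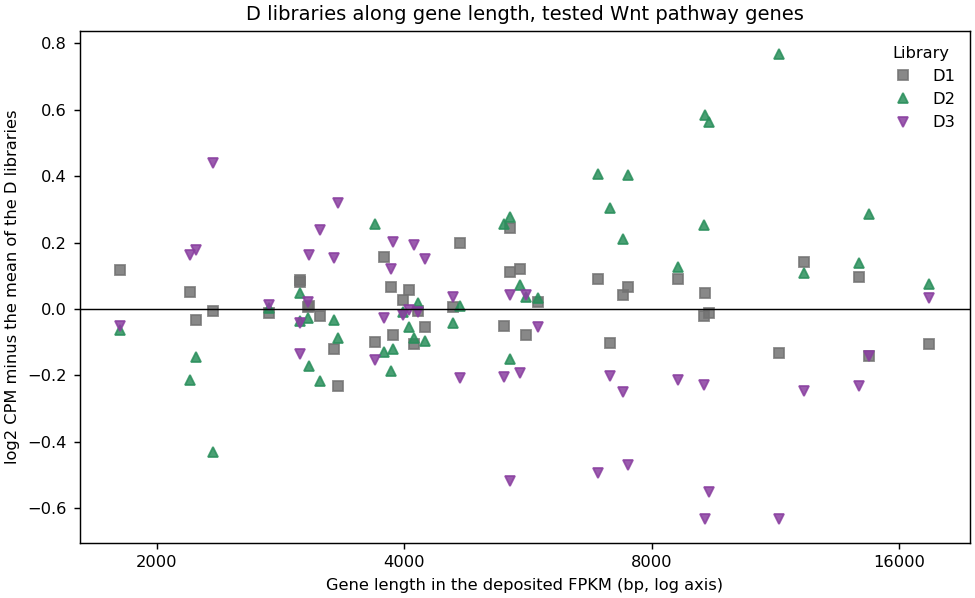
Deviation of each D library's log2 CPM from the mean of the D libraries, against gene length (bp, log axis), for the 42 tested Wnt pathway genes. Among the 13 genes over 6000 bp, D replicate 2 lies above the mean in 13 and D replicate 3 lies below it in 12, the exception being NKD1.

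Other regulators outside the cell moved mostly like the ligands and receptors. The receptor of R-spondins LGR4, which protects Frizzled receptors from RNF43 and ZNRF3, was the tested gene of 6 listed R-spondin and LGR genes. It had 66.4, 59.6 and 58.6 CPM in C and 15.4, 20.8 and 13.1 CPM in D (−1.90 ± 0.17, adjusted p = 6.16e-05, edgeR). Of 10 tested genes for ligand secretion and extracellular control, 6 fell and 2 rose (background 27.7% and 26.8%). KREMEN1, a receptor of DKK1, fell from 40.3 ± 3.84 to 13.7 ± 2.76 CPM (−1.56 ± 0.16), and TRABD2A, a protease that inactivates Wnt ligands, from 29.8 ± 2.80 to 10.2 ± 1.97 CPM (−1.54 ± 0.16). DKK2, a relative of DKK1, went the other way, from 4 to 7 counts per C library to 27 to 30 counts per D library (2.47 ± 0.29, adjusted p = 0.000206). DKK2 passed the filter on low counts through the D libraries only, and PTK7, among the 6 that fell, through the C libraries only. SERPINF1, the other rise (0.36 ± 0.13), passed in 6 of 17 alternatives and, for example, not without D replicate 3 (0.26). Chosen after its values were seen, NDP, which encodes the FZD4 ligand Norrin, fell from 3.69 ± 0.724 to 1.36 ± 0.146 CPM (−1.44 ± 0.22), and WLS, the carrier of Wnt proteins to the cell surface, did not pass the test (0.20 ± 0.11).

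Among other cytoplasmic regulators of beta-catenin the called shares were near those of all tested genes, and of the nuclear cofactors 11 of 26 were called lower. Of 27 tested cytoplasmic genes, 6 rose and 8 fell (background 26.8% and 27.7%), with a median log2 fold change of −0.09. Without C replicate 1, 2 or 3 or D replicate 1, 5 fell. Over all tested genes 2780 to 2882 (of 12809 to 12850) were called lower in these fits, against 3509 of 12682 with all libraries. DACT1, a Dishevelled-binding antagonist, fell from 20.5 ± 2.35 to 7.30 ± 0.987 CPM (−1.49 ± 0.15), and its relative DACT3 by 1.31. The tankyrase gene TNKS, whose product promotes the degradation of AXIN, rose from 73.1 ± 6.66 to 126 ± 32.5 CPM (0.79 ± 0.18), and CSNK2A1, a casein kinase 2 subunit, by 0.64. CSNK1E had 0 to 2 counts, and the readthrough gene TPTEP2-CSNK1E, which overlaps it, had 22 to 88, so the division of reads between them is uncertain. Of 26 tested nuclear cofactors, 11 fell and 1 rose (background 27.7% and 26.8%). BCL9, which tethers coactivators to beta-catenin, fell from 35.7 ± 4.25 to 13.8 ± 4.71 CPM (−1.37 ± 0.24). TLE1, a corepressor of TCF factors, fell from 47.1 ± 2.61 to 20.5 ± 0.594 CPM (−1.20 ± 0.11), so that both a coactivator and a corepressor gene were lower. CDC73, a subunit of the PAF1 complex, rose by 0.58 ± 0.14. Without D replicate 3 there were 2 rises, and 3868 of 12830 tested genes were called higher, against 3393 of 12682.

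Other genes known as targets of beta-catenin were called in both directions. Of 20 tested, 7 fell and 4 rose, and the median was −0.09 (background 27.7% lower and 26.8% higher). Without C replicate 1, 4 fell, and over all tested genes 2780 of 12850 were called lower, against 3509 of 12682 with all libraries. The rises CLDN1, NRCAM and MMP7 passed the filter on low counts through the D libraries only. The remaining rise, MSX1, went from 48.0 ± 3.22 to 110 ± 25.7 CPM (1.19 ± 0.17). MMP7 and MSX1 were named after their values were seen. EPHB3, a receptor of ephrins, fell from 5.84 ± 0.0946 to 1.95 ± 0.124 CPM (−1.58 ± 0.15), and CCN4, a matrix protein first found as a Wnt-induced gene, from 31.8 ± 3.65 to 16.0 ± 1.75 CPM (−0.98 ± 0.14). CLDN1, a tight junction gene, rose from 0.445 ± 0.148 to 4.34 ± 0.214 CPM (3.26 ± 0.24). NRCAM, a cell adhesion gene, had 1, 2 and 4 counts in C and 33, 39 and 26 counts in D. MYC and CCND1, the best known targets and named here after their values were seen, did not pass the test. MYC had 84.9, 92.6 and 81.7 CPM in C and 100, 93.9 and 92.7 CPM in D (0.15 ± 0.10, adjusted p = 0.243, edgeR). The D libraries lay just above the C libraries. Its sign depended on the scaling, at −0.0057 with library size only, and it passed with length trends removed (0.21). CCND1, whose groups overlapped, had 312, 337 and 385 CPM in C and 303, 343 and 262 CPM in D (−0.19 ± 0.13, adjusted p = 0.258).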

How the data were processed

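The authors deposited, for each library, gene counts as whole numbers per symbol and FPKM values. FPKM equalled the count divided by the library total and by a gene length shared by the 6 libraries, which was recovered from both and used for length. Per the labels' protocols, column-purified RNA was made into libraries with a SMARTER mRNA kit. How reads were aligned, counted and split by strand was not given in the sources used here, so reads of overlapping antisense genes cannot be set apart. The labels name the mouse and, per the submitters' processing notes, GRCm38 and mm10, while the symbols are human, so no coordinates or sequences are given.

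Groups came from the titles. Counts were filtered with filterByExpr (12682 of 17144 genes), scaled with TMM and tested with edgeR 4.0.16 in R 4.3.3 (quasi-likelihood F test, 2-sided, group only, Benjamini-Hochberg over all tested genes). CPM are TMM-normalized, errors of levels are SD with n = 3, and errors of log2 fold changes are SE. The members, lists and tests were chosen with earlier results of these data known. Every member is accounted for, and from each other list the 2 called genes with the largest change per direction are named. Genes averaging 3 counts or fewer in C get no fitted fold.

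Alternatives were DESeq2 1.42.0, limma-voom (limma 3.58.1), RLE factors, library size only, other filters on low counts, limma-trend fits of FPKM on the log2 scale with a pseudocount of 1 or 0.1, length trends removed by lowess (span 0.4), the replicate number as a block, and each library left out.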

Additional observations from a re-analysis of the deposited data

How the results depend on the processing

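Of the 23 called Wnt genes, 17 kept their call under all 17 alternatives that gave a value, and CTNNB1, DVL1, FZD7, DKK1, DKK3 and LEF1 lost it under at least 1. Of the 19 genes not called, 10 passed under at least 1. Leaving out 1 library gave 14 to 22 members lower and 3 to 4 higher, and 5407 to 7767 genes called in all. With length trends removed 5 members were higher. Of all calls 49.2% were higher, against 36.8% with library size only (2586 higher and 4449 lower), where 25 members were lower and 3 higher, and 2213 and 2209 genes were higher on log2(FPKM + 1) and log2(FPKM + 0.1), against 3393. The replicate numbers did not pair the libraries: same-numbered deviations correlated at 0.0063, −0.481 and −0.440, and in no case best with their own number. With the replicate number as a block 16 members were lower and 3 higher (5671 genes called), and CTNNB1, DVL1, FZD7 and DKK1 were not called.

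The direction of 8 genes that were not called turned under some settings. DVL2 was at 0.0052 with RLE factors. DVL3 was at −0.0013 with library size only, −0.0092 on log2(FPKM + 1) with or without the filter and −0.010 on log2(FPKM + 0.1), and MYC at −0.0057, −0.0056 and −0.0059 in the same order. NKD1 was at 0.011 in DESeq2, 0.0012 in limma-voom, 0.28 with length trends removed and 0.023 with RLE factors. WNT2B was at −0.13 with library size only and −0.018 on log2(FPKM + 1) without the filter, and TCF7 at −0.013 and −0.0024. With single libraries left out, DVL2 ranged from −0.064 to 0.030, AXIN2 from −0.21 to 0.15, NKD1 from −0.064 to 0.080, WNT2B from −0.096 to 0.17 and ROR1 from −0.51 to 0.077.

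For the other lists, a block by replicate number gave 5 cytoplasmic regulators lower, against 8, and 4 other targets lower, against 7. With this block 2977 of 12682 tested genes were called lower, against 3509. On log2(FPKM + 1) and log2(FPKM + 0.1), 2 other targets were higher, against 4, and 0 genes of secretion and extracellular control, against 2. DKK2 and NRCAM did not pass the filter on FPKM and were not tested in these fits. On log2(FPKM + 1) without the filter, DKK2 and NRCAM were called higher (adjusted p = 0.000231 and 0.000974, limma-trend). Without D replicate 2, 1 R-spondin or LGR gene was called higher, against 0 (3888 of 12808 tested genes were then called higher). By its counts this was LGR6, with 2, 4 and 4 counts in C and 13, 4 and 11 in D. Without D replicate 2 it had enough counts for the filter through the D libraries only, the group where it is high. Depth limits the genes with few counts, LRP5, NKD1, WNT7A and FZD9 among them, and the 7 that were not tested. The cause of these changes was not tested.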

Other observations

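Genes of the branches that work without beta-catenin, planar cell polarity and Wnt-calcium signalling, were also mostly lower in D where they were called. Of 27 tested, 11 fell and 4 rose, and the median of the log2 fold changes was −0.34 (27.7% and 26.8% of all tested genes were called lower and higher). CELSR2, an atypical cadherin of planar polarity, had 11.1, 10.9 and 13.2 CPM in C and 1.75, 2.81 and 1.02 CPM in D (−2.64 ± 0.28, adjusted p = 0.00012, edgeR). DAAM2, a formin that links Dishevelled to the actin skeleton, fell from 29.5 ± 3.22 to 9.92 ± 2.03 CPM (−1.57 ± 0.17; SD, n = 3 for levels and SE for the fold change). The groups of both genes did not overlap. NFATC2, a calcium-regulated transcription factor, had 2.61, 2.54 and 3.03 CPM in C and 5.53, 10.8 and 4.37 CPM in D (1.34 ± 0.33, adjusted p = 0.00791, edgeR). CELSR1, a relative of CELSR2, passed in the other direction (0.69 ± 0.24, adjusted p = 0.0351, edgeR), but D replicate 3 with 12.1 CPM lay within the C range of 9.80 to 12.9 CPM. The number that fell was 6 without C replicate 1 or D replicate 1 and 7 without C replicate 2 or C replicate 3. Over all tested genes fewer were called lower too, with 2780 of 12850 without C replicate 1 and 2824 of 12832 without D replicate 1. They were 2882 of 12809 without C replicate 2 and 2854 of 12812 without C replicate 3, against 3509 of 12682 with all libraries.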
